A study of Homo sapiens with 6 samples.

Results

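The HOX genes encode homeodomain transcription factors that lie in 4 clusters, and they were followed here in K562, a human erythroleukaemia cell line, and in K562 knockout lines of ultra-conserved elements (UCEs), stretches of the genome outside coding exons whose bases have hardly diverged in vertebrate evolution. A row of the count table was a member if its gene name was HOX followed by A, B, C or D and a paralogue number, or if it was HOTAIRM1, HOTTIP or HOTAIR, long non-coding RNAs of the clusters. This gave 42 members of the 52088 entries in the table, of which 39 were protein-coding genes and 3 were non-coding. The clusters contributed 13 members from HOXA with HOTAIRM1 and HOTTIP, 10 from HOXB, 10 from HOXC with HOTAIR, and 9 from HOXD.

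Total RNA was sequenced in 2 libraries each of PAX6_Ta KO, PBX3_Cl KO and Control. PAX6_Ta KO was edited to delete the UCE PAX6_Tarzan and PBX3_Cl KO to delete the UCE PBX3_Claudia, while Control cells were labelled WT. The knockout cells were picked as single clones after transfection of a plasmid that carried Cas9 and paired guide RNAs, followed by puromycin selection. The sources do not say which clones gave the libraries, whether both libraries of a group came from one clone, or whether Control cells went through the same transfection and selection, so a trait of a clone and an effect of a deletion cannot be told apart. Nothing stated that the libraries of a group came from separate cultures, so the spread that the p-values rest on may be technical.

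HOX genes of a cluster are transcribed in one direction and are numbered by paralogue group from the anterior end (group 1) to the posterior end (group 13), in the order in which they are switched on along the body axis. In blood cells they are known for their part in the growth of immature progenitors, with HOXA9 the best-known example in acute leukaemia. Trithorax complexes that contain KMT2A keep HOX genes active, Polycomb complexes keep them silent, and HOX proteins bind DNA together with TALE partners of the PBX and MEIS families.

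The libraries held 45912044 to 60908470 counts. Of 12 erythroid and K562 markers all were detected in every group, with summed levels of 9441 to 11108 CPM (counts scaled to a common library size with TMM factors) in PAX6_Ta KO, 7846 to 9326 CPM in PBX3_Cl KO and 6141 to 7111 CPM in Control. The gene PAX6 had 642 and 538 counts in PAX6_Ta KO, 433 and 400 in PBX3_Cl KO, and 580 and 313 in Control, and its difference did not pass the test in any comparison. Neither this level nor that of PBX3, given below with the cofactors, tests whether an element was deleted.

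The 4 clusters stood at very different levels. Summed over its members, HOXB reached 533 ± 81.9 CPM in PAX6_Ta KO, 538 ± 40.6 CPM in PBX3_Cl KO and 530 ± 83.5 CPM in Control (SD, n = 2 each), which was on average 88.4%, 95.5% and 93.9% of the CPM of all members in these groups. HOXC came next in Control with 34.0 ± 2.44 CPM, against 27.8 ± 3.05 CPM in PAX6_Ta KO and 25.1 ± 8.85 CPM in PBX3_Cl KO. The HOXA members summed to 32.2 and 31.4 CPM in the 2 PAX6_Ta KO libraries, against 0.385 and 0.393 CPM in PBX3_Cl KO and 0.0832 and 0.0198 CPM in Control. The HOXD members summed to 10.4 and 9.38 CPM in PAX6_Ta KO, against 0.068 and 0 CPM in PBX3_Cl KO and 0.15 and 0.0594 CPM in Control. Over both libraries of a group, the HOXA members held 3200 counts in PAX6_Ta KO, 35 in PBX3_Cl KO and 6 in Control, and the HOXD members held 993, 3 and 12 counts. In bulk RNA, transcripts in a few cells and a low level in all cells cannot be told apart.

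**Figure D1:**
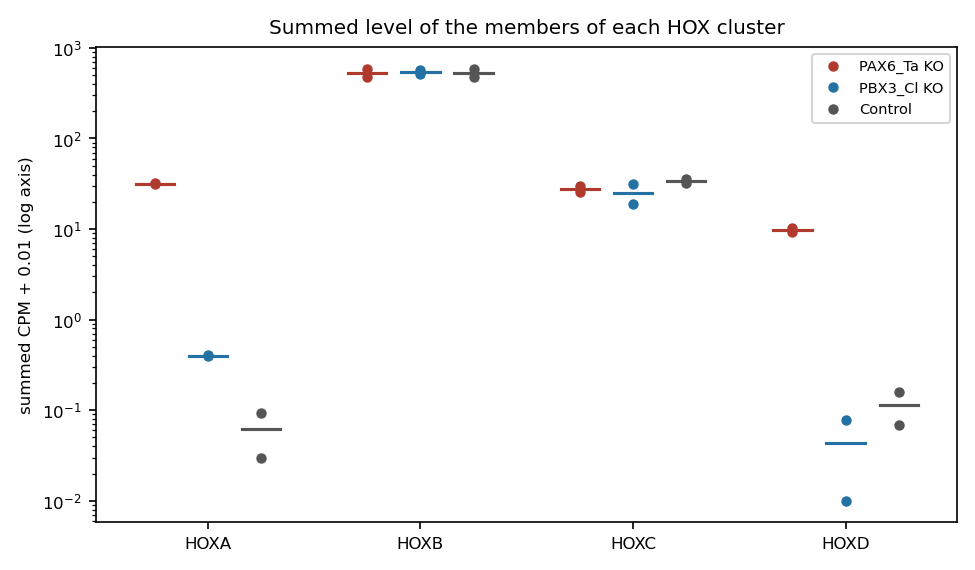
Summed CPM of the members of each HOX cluster, with 0.01 added and a log axis, for PAX6_Ta KO, PBX3_Cl KO and Control. Points are the 2 libraries of a group and bars their mean. HOXB stood near 530 CPM in all groups, whereas HOXA and HOXD reached 32.2 and 10.4 CPM in PAX6_Ta KO and were at most 0.393 CPM in the other groups.

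Levels of different genes were compared as CPM per kb of annotated exon. HOXB9 led in every group, with 123 ± 24.7 CPM per kb in PAX6_Ta KO, 126 ± 2.88 in PBX3_Cl KO and 121 ± 22.6 in Control (SD, n = 2 each). HOXB4, which supports the self-renewal of blood stem cells, came second in every group with 38.1 ± 7.29, 42.8 ± 4.08 and 48.5 ± 11.1 CPM per kb in PAX6_Ta KO, PBX3_Cl KO and Control. HOXB9 and HOXB4 did not overlap in any group, and neither did HOXB4 and the gene that followed it. Among the genes that followed in Control, HOXC9 and HOXB2 overlapped in their replicates, as did HOXB8 and HOXB7. In PAX6_Ta KO the order was broken into by HOTAIRM1 in place 7 with 5.71 ± 1.27 CPM per kb, HOXD13 in place 11 with 2.94 ± 0.116 and HOXA5 in place 12 with 2.75 ± 0.383, and the replicates of HOXD13 and HOXA5 overlapped. In these libraries HOXD13 was therefore above HOXC6 at 2.02 ± 0.281 CPM per kb and HOXB5 at 1.95 ± 0.447 CPM per kb, genes that were detected in every library.

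**Figure D2:**
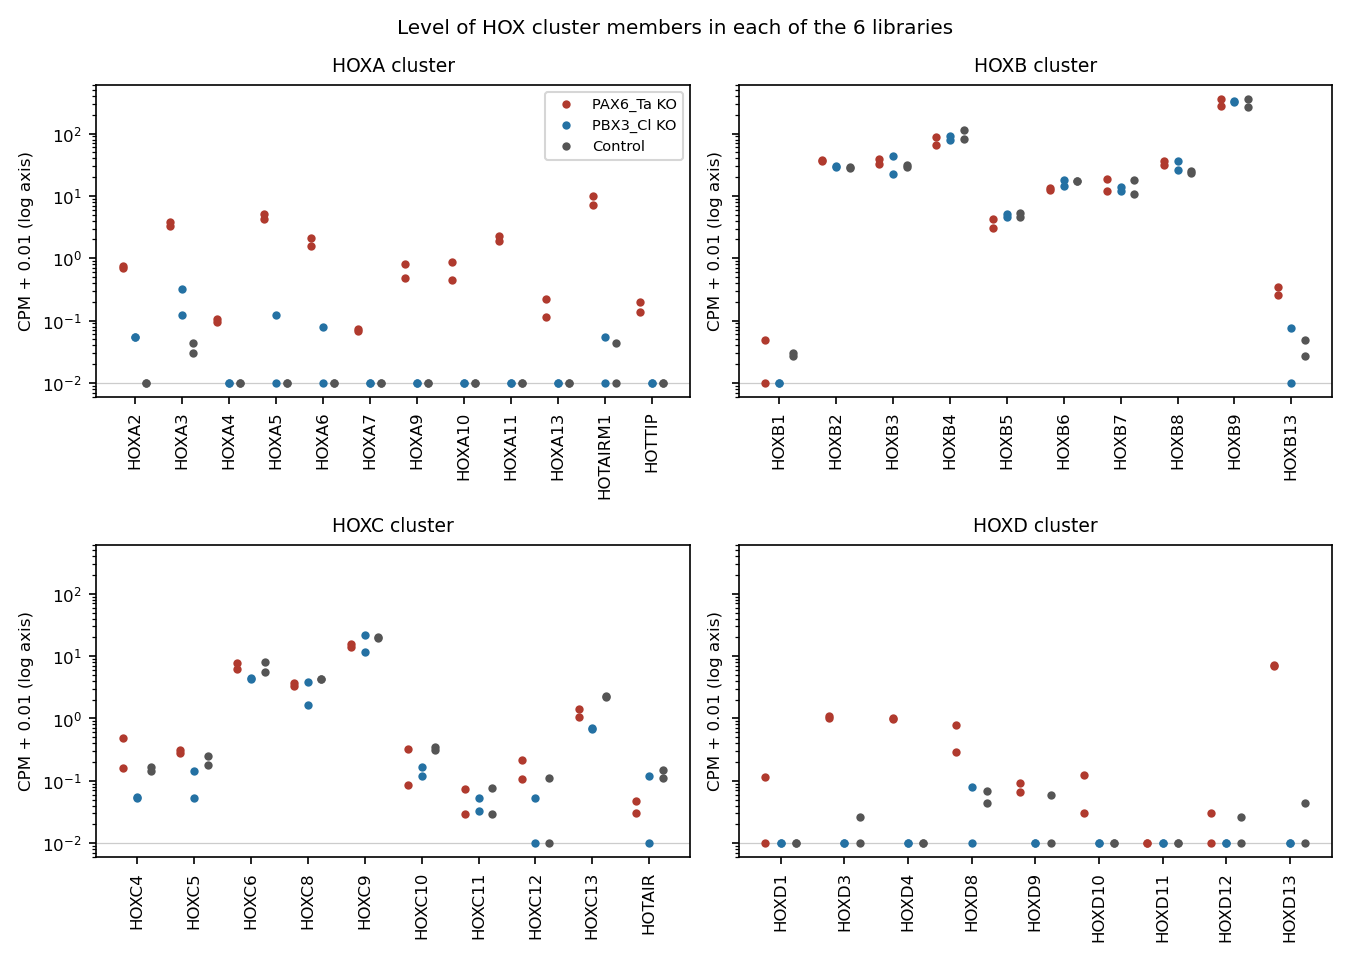
CPM of the members in each library, with 0.01 added and a log axis, in 4 panels by cluster and in paralogue order. At each gene PAX6_Ta KO, PBX3_Cl KO and Control run from left to right with 1 point per library, and points on the grey line are at 0 counts. Several members of HOXA and HOXD that were at or near 0 in Control were higher in PAX6_Ta KO, such as HOXD13 near 7 CPM, while HOXD11 was at 0 in all libraries, and the points of HOXB2 to HOXB9 lay together.

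The comparison of PAX6_Ta KO with Control asks which transcripts differ between cells edited to delete the element in the PAX6 region and Control cells. Among the HOX members it gave transcripts from anterior, central and posterior HOXA genes and from a few HOXD genes in PAX6_Ta KO. These genes lay at or near 0 counts in Control. HOXB and HOXC transcripts were present in both groups at levels that mostly did not pass the test. By edgeR's quasi-likelihood test, with p-values adjusted by the Benjamini-Hochberg procedure over 20746 tested genes, 14 of 28 tested members were called higher at an adjusted p below 0.05 and 0 were called lower, against 7.21% higher and 4.21% lower among all tested genes. At an unadjusted p below 0.05, 1 member was lower, and DESeq2 called 12 higher and 0 lower. All 14 members called higher reached 10 counts in fewer than 2 of the other 4 libraries, so they passed the filter on low counts through PAX6_Ta KO, and their share of the tested members carries no weight of its own. The 14 members that were not tested held at most 23 counts in any library.

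At the anterior end of HOXA, HOXA2, which patterns the second pharyngeal arch, had 36 and 36 counts in PAX6_Ta KO, against 2 and 2 in PBX3_Cl KO and 0 and 0 in Control. It was at least 26.3-fold higher than in Control, the bound being set by 3 counts over the Control group. HOXA3, a group 3 gene of the pharyngeal organs, had 156 and 204 counts in PAX6_Ta KO, 5 and 14 in PBX3_Cl KO, and 2 and 1 in Control. Its ratio to Control was 132 with an exact 95% interval of 44.7 to 642, which covers counting error only (adjusted p = 1.88e-05, edgeR). For these genes both PAX6_Ta KO libraries lay above every other library.

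In the centre of the cluster HOXA5, known for lung and skeletal patterning, had 250 and 225 counts in PAX6_Ta KO, 5 and 0 in PBX3_Cl KO, and 0 and 0 in Control, and was at least 174-fold higher than in Control (adjusted p = 4.51e-05, edgeR). HOXA6 had 101 and 83 counts in PAX6_Ta KO, 3 and 0 in PBX3_Cl KO and 0 and 0 in Control, and was at least 67.3-fold higher. Their neighbours were far lower. HOXA4 had 4 and 5 counts and HOXA7 had 3 and 3 counts in PAX6_Ta KO, and both were at 0 counts in the other 4 libraries. Neither was tested. Per kb of exon, PAX6_Ta KO held 2.75 ± 0.383 CPM of HOXA5 and 1.43 ± 0.29 CPM of HOXA6, beside 0.0515 ± 0.00477 CPM of HOXA4 and 0.0248 ± 0.00161 CPM of HOXA7. HOXA7 shares 1507 of its 2411 annotated exon bases with HOXA-AS3 on the other strand, and HOXA6 shares 505 of 1285. Of the 1728 bases of HOXA4, 541 are shared on its own strand and 285 on the other. The part of these overlaps in the low counts was not tested.

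At the posterior end HOXA9, the HOX gene best known in acute myeloid leukaemia, had 38 and 25 counts in PAX6_Ta KO, and HOXA10, its neighbour in progenitor cells, had 41 and 23. Both were at 0 in the other 4 libraries, which put HOXA9 at least 23.1-fold and HOXA10 at least 23.4-fold higher than in Control (adjusted p = 0.00152 and 0.00177, edgeR). DESeq2 did not call HOXA10 (adjusted p = 0.406). HOXA11, a group 11 gene of limb and uterus, had 110 and 99 counts in PAX6_Ta KO and 0 in all 4 other libraries, at least 76.5-fold higher than in Control (adjusted p = 8.2e-05, edgeR). HOXA13, the last gene of the cluster, had 5 and 11 counts in PAX6_Ta KO and none elsewhere. The level thus did not follow the order of the paralogue numbers, since HOXA11 at 0.781 ± 0.109 CPM per kb was above HOXA9 at 0.209 ± 0.0737 and HOXA10 at 0.174 ± 0.0795 on one side and above HOXA13 at 0.0308 ± 0.0146 on the other.

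The non-coding RNAs of HOXA were present in the same libraries. HOTAIRM1, which is transcribed from the anterior end and is known from myeloid cells, had 346 and 521 counts in PAX6_Ta KO, 0 and 2 in PBX3_Cl KO, and 2 and 0 in Control. Its ratio to Control was 476 with an exact interval of 131 to 3936 (adjusted p = 6.2e-06, edgeR). HOTTIP, at the posterior end beside HOXA13 and known for recruiting the WDR5 and KMT2A complex, had 6 and 10 counts in PAX6_Ta KO and 0 in the other libraries, and was not tested. Of 17 antisense and intergenic RNAs of the clusters, 12 were tested, and 5 rose in PAX6_Ta KO against Control. Among all tested genes 7.21% were higher. All of the 5 but HOXA-AS2 passed the filter on low counts through PAX6_Ta KO, so their share carries no weight of its own. HOXA11-AS had 286 and 254 counts in PAX6_Ta KO and 0 elsewhere, at least 198-fold higher than in Control. HOXA-AS2 had 265 and 261 counts in PAX6_Ta KO, 16 and 33 in PBX3_Cl KO, and 3 and 1 in Control, a log2 fold change of 7.09 ± 0.586 (SE) against Control. HOXA-AS3 had 49 and 44 counts in PAX6_Ta KO, 1 and 3 in PBX3_Cl KO and 1 and 3 in Control. The antisense RNAs of HOXB and HOXC that were tested were detected in every library and none was among the 5. Annotated exons of 27 members share bases with another entry, such as 726 bases between HOXA11 and HOXA11-AS. The libraries were made with a stranded kit, but the strand setting of the counting was not given in the sources used here. Such partners therefore cannot be told apart where they overlap.

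In the HOXD cluster the transcripts in PAX6_Ta KO came mainly from HOXD13 at the posterior end and from HOXD3, HOXD4 and HOXD8. HOXD1 and HOXD9 to HOXD12 had few or no counts. HOXD13, the most posterior gene and a gene of digit formation, had 351 and 364 counts in PAX6_Ta KO, 0 and 0 in PBX3_Cl KO, and 2 and 0 in Control. Its ratio to Control was 392 with an exact interval of 108 to 3247 (adjusted p = 7.82e-06, edgeR). Next to it, HOXD12 had 1 and 0 counts and HOXD11 had 0 and 0 counts in PAX6_Ta KO, HOXD10 had 1 and 6, and HOXD9 had 4 and 3. Towards the anterior end, HOXD8 had 37 and 15 counts in PAX6_Ta KO, 3 and 0 in PBX3_Cl KO, and 2 and 3 in Control, a log2 fold change against Control of 3.46 ± 0.872 (SE, adjusted p = 0.0218, edgeR). HOXD3 had 52 and 54 counts in PAX6_Ta KO, 0 and 0 in PBX3_Cl KO, and 1 and 0 in Control, a ratio to Control of 116 with an exact interval of 20.4 to 4639. HOXD4 had 48 and 52 counts in PAX6_Ta KO and 0 in the other 4 libraries, at least 36.6-fold higher than in Control. HOXD1 had 5 and 0 counts in PAX6_Ta KO and none elsewhere. The call of HOXD8 was lost without PAX6_Ta KO replicate 1 (adjusted p = 0.224, edgeR) or without Control replicate 1 (adjusted p = 0.0808, edgeR).

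The antisense RNAs HAGLR and HAGLROS of the anterior HOXD region were present beside these genes. HAGLR had 113 and 81 counts in PAX6_Ta KO, 0 and 1 in PBX3_Cl KO, and 0 and 0 in Control, at least 71.0-fold higher than in Control. HAGLROS had 57 and 34 counts in PAX6_Ta KO, 2 and 3 in PBX3_Cl KO, and 0 and 1 in Control, a ratio to Control of 99.9 with an exact interval of 17.5 to 3989. HAGLR shares annotated exon bases with HOXD1 and HOXD3.

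HOXB13, which lies apart from the rest of HOXB and is known from the prostate, had 16 and 13 counts in PAX6_Ta KO, 0 and 3 in PBX3_Cl KO, and 1 and 2 in Control. The ratio to Control was 10.6 with an exact interval of 3.29 to 54.4 (adjusted p = 0.0372, edgeR). This call was lost with DESeq2 (adjusted p = 0.119), with upper-quartile factors (adjusted p = 0.051, edgeR), and without either library of PAX6_Ta KO or of Control (adjusted p of 0.0649 to 0.184, edgeR).

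Markers of other cell types differed between the same groups. The summed level of 5 pluripotent stem cell markers was 103 to 107 CPM in PAX6_Ta KO, 1.11 to 1.7 CPM in PBX3_Cl KO and 4.51 to 6.08 CPM in Control, and LIN28A made up most of it, at 5087 and 5368 counts in the PAX6_Ta KO libraries, 13 and 16 in PBX3_Cl KO, and 281 and 177 in Control. Of its other markers, DPPA4 was at 38 and 42 in PAX6_Ta KO, 0 and 1 in PBX3_Cl KO, and 1 and 2 in Control. NANOG and SOX2 were each at 0 and 1 in PAX6_Ta KO and at 0 elsewhere, and POU5F1 fell in PAX6_Ta KO, with 14 and 23 counts there, 36 and 61 in PBX3_Cl KO, and 83 and 49 in Control. The 7 fibroblast markers summed to 23.1 CPM in both PAX6_Ta KO libraries, 3.24 to 3.27 CPM in PBX3_Cl KO and 49.0 to 133 CPM in Control, with LUM at 0 in every library. Members of that list moved in opposite directions. COL1A2, a collagen chain that made up most of the sum in Control, fell in both knockouts, with counts of 853 and 992 for PAX6_Ta KO, 61 and 78 for PBX3_Cl KO, and 2922 and 6703 for Control. COL1A1, its partner chain, rose in PAX6_Ta KO, at 224 and 207 there, 8 and 22 in PBX3_Cl KO, and 8 and 7 in Control (log2 fold change 4.96 ± 0.517 (SE), adjusted p = 4.89e-05, edgeR). Epithelial markers summed to 1080 to 1719 CPM in PAX6_Ta KO, 406 to 785 CPM in PBX3_Cl KO and 644 to 793 CPM in Control, with KRT5 and KRT14 at 0. The sum was mostly KRT8, which was not called (adjusted p = 0.0677, edgeR), while KRT18 rose with a log2 fold change of 1.06 ± 0.268 (SE). EPCAM, an epithelial adhesion molecule, fell in PAX6_Ta KO, at 176 and 112 there, 1180 and 1003 in PBX3_Cl KO, and 2538 and 2300 in Control (log2 fold change -3.92 ± 0.281 (SE), adjusted p = 3.09e-06, edgeR). Of the 12 erythroid markers, 4 rose (HBG2, HBE1, HBZ and LMO2) and 1 fell in PAX6_Ta KO, beside 7.21% and 4.21% of all tested genes. The lymphoid markers summed to 4.7 to 4.95 CPM in PAX6_Ta KO and 5.15 to 6.69 CPM in Control, and the myeloid markers to 24.6 to 37.7 CPM and 21.3 to 42.5 CPM, with no call in either list (lowest adjusted p = 0.272 and 0.406, edgeR). The part of these differences in the HOX result was not tested.

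Among the genes around the 4 clusters, 3 of 34 tested were called higher in PAX6_Ta KO against Control (8.82%, beside 7.21% of all tested genes). They came from the lists for the HOXA and HOXD flanks. In PBX3_Cl KO against Control the number was 4 of 34 (11.8%, beside 6.28% of all tested genes). Of 9 tested flanking genes of HOXA, 1 rose in PAX6_Ta KO against Control, SKAP2, an adaptor of haematopoietic cells, with 1892 and 1987 counts against 1023 and 638 (log2 fold change 1.38 ± 0.255 (SE), adjusted p = 0.00343, edgeR). The median log2 fold change of the 9 against Control was 0.74 in PAX6_Ta KO, beside -0.0191 over all tested genes. In PBX3_Cl KO, where the HOXA members held few counts, it was 0.692, beside -0.00887. EVX1, a homeobox gene just beyond HOXA13, was at 0 in all 6 libraries. Of 8 tested flanking genes of HOXD, NFE2L2, the regulator of the oxidative stress response, rose with a log2 fold change of 1.09 ± 0.199 (SE), and CHRNA1 rose, at 30 and 35 in PAX6_Ta KO, 10 and 16 in PBX3_Cl KO, and 3 and 0 in Control, with a median of 0.753 over the 8. EVX2, beside HOXD13, had 4 and 4 counts in PAX6_Ta KO, 1 and 1 in PBX3_Cl KO, and 2 and 0 in Control. In the flanks of HOXB (7 tested) and HOXC (10 tested) the lowest adjusted p against Control was 0.297 and 0.0689 (edgeR), with medians of -0.115 and 0.0155. The copy number of these regions was not tested.

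**Figure D3:**
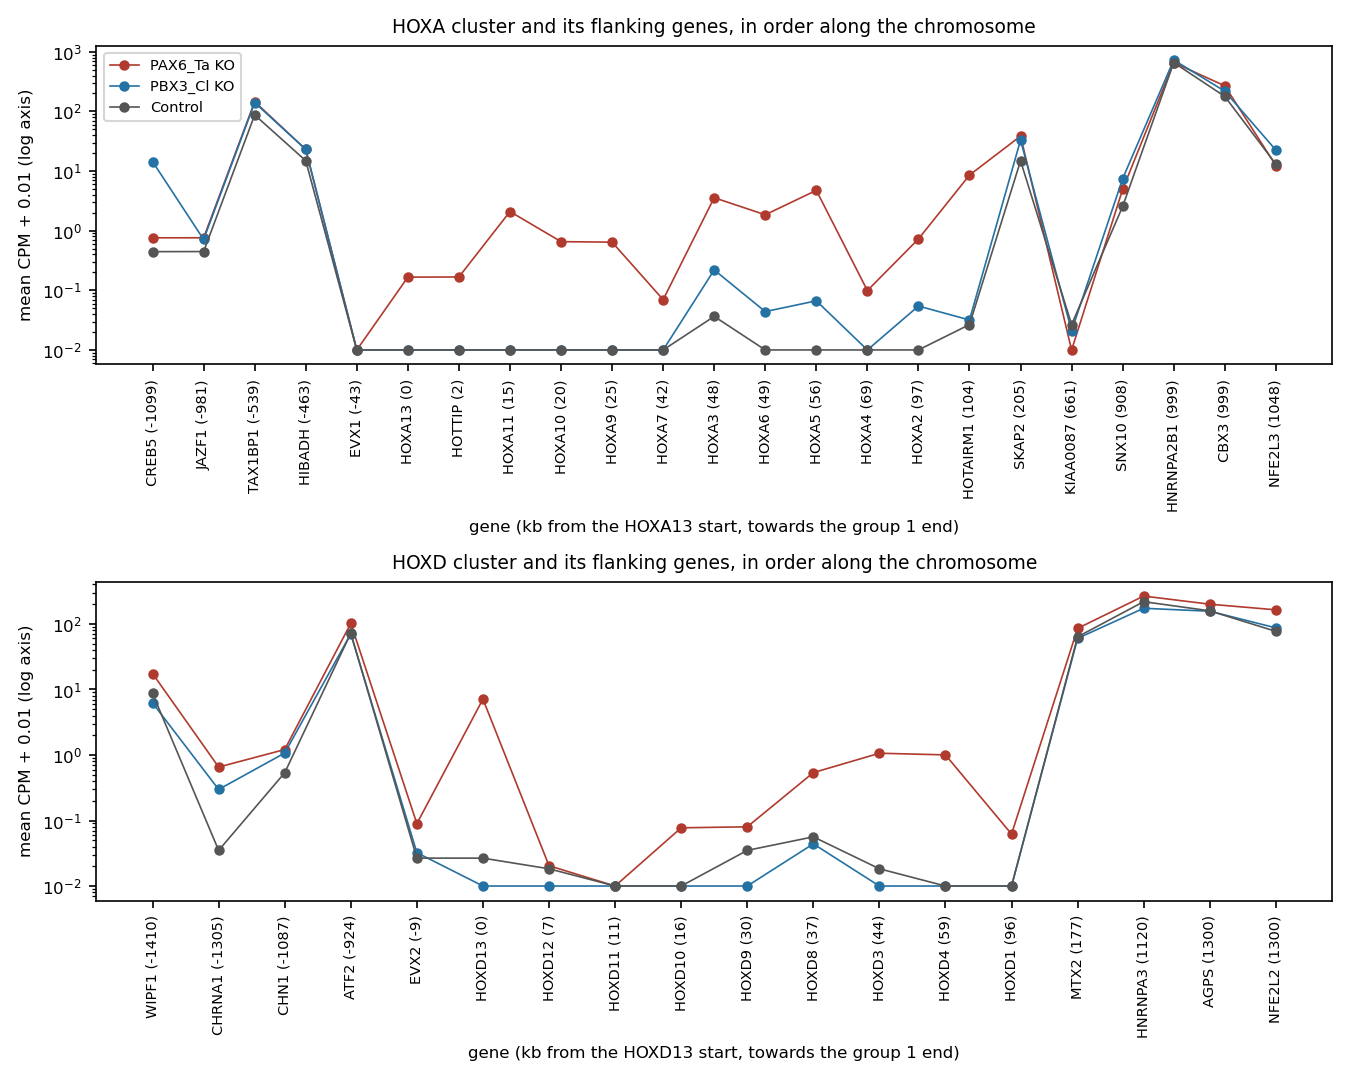
Mean CPM of 2 libraries, with 0.01 added and a log axis, for the members of HOXA and HOXD shown and for their flanking genes, in order along the chromosome for PAX6_Ta KO, PBX3_Cl KO and Control. Numbers beside the gene names are the distance in kb of the gene's annotated start from that of HOXA13 or HOXD13, and the lines only guide the eye. PAX6_Ta KO stood apart from the other groups inside the clusters, with low points at HOXA4, HOXA7, HOXD1 and HOXD9 to HOXD12. Among flanking genes, CREB5 stood apart in PBX3_Cl KO. SKAP2 and CHRNA1 were higher in both knockouts than in Control, and NFE2L2 was higher in PAX6_Ta KO.

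Promoter sequences were set beside this pattern for genes of one cluster with unlike level in PAX6_Ta KO. The HOXD pair shown are neighbours, while HOXA9 and HOXA10 lie between the HOXA pair. RefSeq windows (GRCh38.p14) that run from 250 bases before to 50 bases after an annotated start were found for 21 of the 42 members, as 28 windows. HOXA11 (209 counts over both PAX6_Ta KO libraries) and HOXA7 (6 counts) are shown for HOXA, and HOXD13 (715 counts) and HOXD12 (1 count) for HOXD. Capitals mark matches on either strand to the letters of 6 motifs. They were the GC box with letters GGGCGG, the E-box with letters CACGTG, the TATA box with letters TATAAA, the retinoid receptor half-site with letters AGGTCA, the PBX-HOX composite site with letters TGATTNAT, and the CCAAT box, whose letters are its name.
HOXA11 promoter window, chr7:27185183-27185482, reverse strand: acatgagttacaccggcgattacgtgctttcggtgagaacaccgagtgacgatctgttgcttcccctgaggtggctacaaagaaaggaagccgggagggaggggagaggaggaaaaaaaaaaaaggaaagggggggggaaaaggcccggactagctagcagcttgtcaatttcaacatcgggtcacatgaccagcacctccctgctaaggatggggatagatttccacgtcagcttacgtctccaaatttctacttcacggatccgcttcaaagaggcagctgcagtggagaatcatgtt
HOXA7 promoter window, chr7:27156626-27156925, reverse strand: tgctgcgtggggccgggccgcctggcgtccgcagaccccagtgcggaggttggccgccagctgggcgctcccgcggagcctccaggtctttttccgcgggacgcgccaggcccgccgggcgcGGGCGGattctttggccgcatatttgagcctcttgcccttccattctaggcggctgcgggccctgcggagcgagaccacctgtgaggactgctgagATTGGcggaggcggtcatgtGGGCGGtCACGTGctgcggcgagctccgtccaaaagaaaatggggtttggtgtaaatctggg
HOXD13 promoter window, chr2:176092471-176092770, forward strand: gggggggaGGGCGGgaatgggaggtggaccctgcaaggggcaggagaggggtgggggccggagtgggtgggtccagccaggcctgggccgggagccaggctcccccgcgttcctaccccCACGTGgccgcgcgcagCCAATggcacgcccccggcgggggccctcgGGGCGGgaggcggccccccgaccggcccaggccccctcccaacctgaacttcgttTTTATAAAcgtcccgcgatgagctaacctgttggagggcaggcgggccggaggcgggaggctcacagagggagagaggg
HOXD12 promoter window, chr2:176099545-176099844, forward strand: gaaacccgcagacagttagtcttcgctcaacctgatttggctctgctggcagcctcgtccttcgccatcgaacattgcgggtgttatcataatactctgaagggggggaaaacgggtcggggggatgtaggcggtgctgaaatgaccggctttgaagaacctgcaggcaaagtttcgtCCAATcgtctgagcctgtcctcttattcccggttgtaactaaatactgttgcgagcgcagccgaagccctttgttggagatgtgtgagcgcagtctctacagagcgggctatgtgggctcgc
The HOXA11 window held 13 CG pairs and no match to any of the 6 motifs, whereas the HOXA7 window held 31 CG pairs, 2 GC boxes, 1 CCAAT box and 1 E-box. In the HOXD pair shown the higher gene had more matches. The HOXD13 window held 24 CG pairs with 2 GC boxes, 2 overlapping TATA boxes, 1 CCAAT box and 1 E-box. The HOXD12 window held 19 CG pairs with 1 CCAAT box. Other HOXD windows went both ways. HOXD11, at 0 counts in PAX6_Ta KO, had 27 CG pairs, 1 GC box, 1 E-box and 1 PBX-HOX composite site. HOXD3, at 52 and 54 counts, had 25 CG pairs, 2 GC boxes, 1 CCAAT box and 1 E-box. HOXD4, at 48 and 52 counts, had 4 CG pairs and 1 CCAAT box. Over the 28 HOX windows a GC box was found in 14 (50%, against 45% of 35114 RefSeq windows), a TATA box in 5 (17.9% against 11.5%), a CCAAT box in 19 (67.9% against 34.6%), an E-box in 9 (32.1% against 7.26%), the PBX-HOX composite in 2 (7.14% against 2.82%) and the retinoid half-site in 0 (against 13.8%). HOXC4 and HOXC5 share a window, HOXA3 has 7, and the windows of HOXA13 and HOTTIP overlap, so the windows are not separate genes. No window was found for HOXB2 to HOXB9 or HOXC6 to HOXC13, so the shares leave out the genes of most HOX transcripts. The RefSeq windows, with a median of 14 CG pairs, were not matched in CG content to the HOX windows, which held 0 to 44. The letters of the GC box and the E-box themselves hold a CG pair. A match to letters does not show that a factor bound there.

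The HOXB genes made up most of the HOX transcripts of Control cells, and HOXB2 to HOXB9 did not pass the test in PAX6_Ta KO. HOXB9, a posterior gene, had 17447 and 14366 counts in PAX6_Ta KO, 14091 and 15126 in PBX3_Cl KO, and 21291 and 13729 in Control. Its log2 fold change in PAX6_Ta KO was 0.02 ± 0.224 (SE), and in CPM the libraries of the groups overlapped. Against Control the same held for HOXB4 and HOXB7. In CPM both PAX6_Ta KO libraries lay above both Control libraries for HOXB2, HOXB3 and HOXB8, and below both for HOXB5 and HOXB6. How often this occurs among all tested genes was not counted for this comparison. HOXB4 had 4166 and 3480 counts in PAX6_Ta KO, 3528 and 4195 in PBX3_Cl KO, and 6777 and 4116 in Control, with a log2 fold change in PAX6_Ta KO of -0.35 ± 0.221 (SE). HOXB2, a hindbrain gene, had 1770 and 1981 counts in PAX6_Ta KO, 1280 and 1369 in PBX3_Cl KO, and 1661 and 1486 in Control. For HOXB2 to HOXB9 the log2 fold changes lay between -0.46 for HOXB5 (adjusted p = 0.436, edgeR) and 0.45 for HOXB8 (adjusted p = 0.252, edgeR) in PAX6_Ta KO, and the median over the 9 tested HOXB members was 0.0725, beside -0.0191 over all tested genes.

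The remaining central genes were detected in every library. HOXB3 had 1586 and 2057 counts in PAX6_Ta KO, 986 and 2005 in PBX3_Cl KO, and 1727 and 1612 in Control. HOXB8, which can hold myeloid progenitors immature when overexpressed, had 1737 and 1622 counts in PAX6_Ta KO, 1134 and 1681 in PBX3_Cl KO, and 1526 and 1192 in Control. HOXB7 had 887 and 629 counts in PAX6_Ta KO, 616 and 558 in PBX3_Cl KO, and 1095 and 538 in Control, and in CPM its groups overlapped. HOXB6 had 640 and 656 counts in PAX6_Ta KO, 636 and 817 in PBX3_Cl KO, and 1055 and 869 in Control. HOXB5 was the lowest of them, with 146 and 222 counts in PAX6_Ta KO, 204 and 233 in PBX3_Cl KO, and 274 and 273 in Control. HOXB1, the anterior end of the cluster, had at most 2 counts in any library. HOXB3 shares annotated exon bases on the same strand with HOXB4 and HOXB6, so their counts may be split between them.

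**Figure D4:**
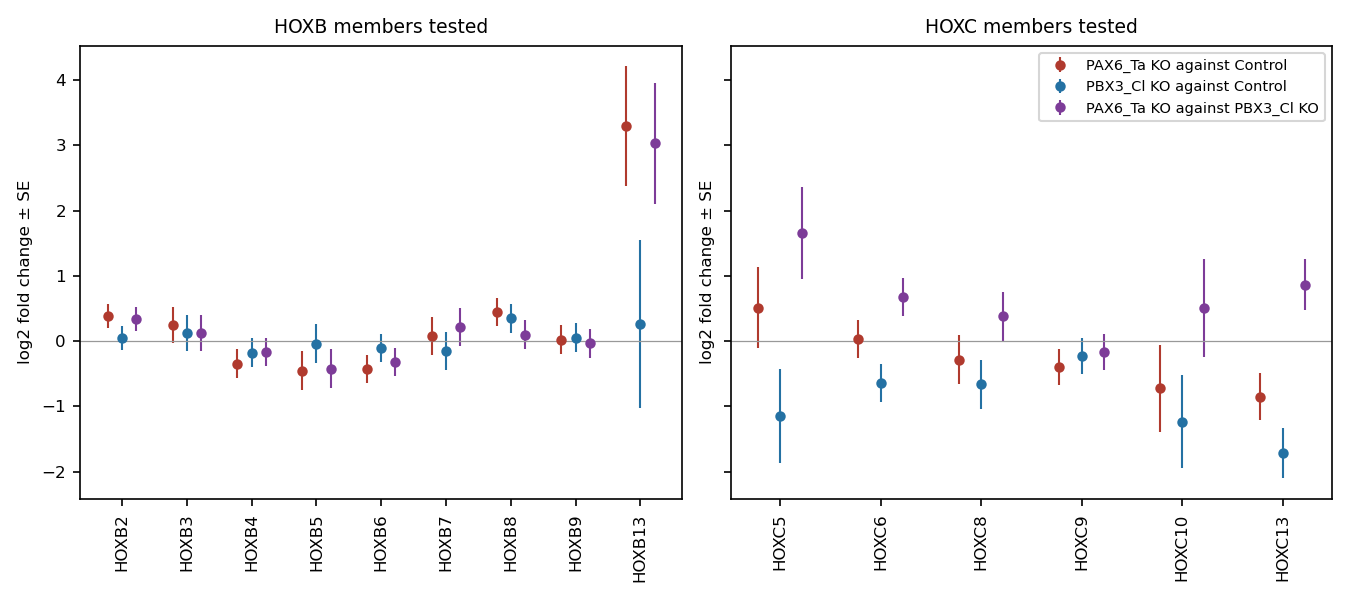
Log2 fold changes with their standard errors for the tested members of HOXB (left) and HOXC (right), for each knockout against Control and for PAX6_Ta KO against PBX3_Cl KO. HOXB2 to HOXB9 lay within 0.46 of 0 in every comparison, HOXB13 was higher in PAX6_Ta KO, and HOXC13 fell by 1.71 on the log2 scale in PBX3_Cl KO against Control.

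Among the HOXC genes, HOXC9 was the highest, with 760 and 750 counts in PAX6_Ta KO, 512 and 1019 in PBX3_Cl KO, and 1207 and 981 in Control. HOXC6 had 368 and 331 counts in PAX6_Ta KO, 199 and 193 in PBX3_Cl KO, and 491 and 276 in Control. HOXC8 had 178 and 177 counts in PAX6_Ta KO, 72 and 174 in PBX3_Cl KO, and 259 and 217 in Control. In PAX6_Ta KO against Control the 6 tested HOXC members had log2 fold changes from -0.85 to 0.51 with a median of -0.34, and none was called by edgeR or DESeq2, while 1 had an unadjusted p below 0.05 (HOXC13, adjusted p = 0.185, edgeR). HOXC5 had 13 and 16 counts in PAX6_Ta KO, 6 and 2 in PBX3_Cl KO, and 10 and 12 in Control, and HOXC10 had at most 18 counts in a library. HOXC4, not tested, was at 23 and 8 counts in PAX6_Ta KO, 2 and 2 in PBX3_Cl KO, and 8 and 8 in Control. HOXC11 had at most 4 and HOXC12 at most 10 counts. HOTAIR, the RNA of the HOXC cluster that is known for binding Polycomb complexes, was not tested either, at 1 and 2 counts in PAX6_Ta KO, 0 and 5 in PBX3_Cl KO, and 6 and 7 in Control.

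In PBX3_Cl KO against Control, which asks the same of the other element, 1 of 28 tested members was called higher and 1 lower, against 6.28% higher and 2.69% lower among all tested genes. The lower one was HOXC13, a gene of hair and nail, with 30 and 31 counts in PBX3_Cl KO, 68 and 56 in PAX6_Ta KO, and 136 and 111 in Control. In CPM this was 0.68 and 0.676 in PBX3_Cl KO against 2.26 and 2.2 in Control, and HOXC13 fell by 1.71 ± 0.383 (SE) on the log2 scale (adjusted p = 0.0136, edgeR). The call was lost without Control replicate 1 (adjusted p = 0.0618, edgeR). The other tested HOXC members did not pass the test, with log2 fold changes from -1.23 for HOXC10 to -0.22 for HOXC9 (lowest adjusted p = 0.241, edgeR), and in 5 of the 6 both PBX3_Cl KO libraries lay below both Control libraries, as they did for 20.6% of all tested genes. HOXC9 was the exception, since PBX3_Cl KO replicate 2 was above both Control libraries at 22.2 CPM and replicate 1 below them at 11.6 CPM. Without PBX3_Cl KO replicate 2, HOXC8 and HOXC9 were called lower too (adjusted p = 0.0309 and 0.0485, edgeR), and 3 members were then lower in place of 1, while HOXA5 was called higher (adjusted p = 0.0461, edgeR).

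The higher one was HOXA3, with 5 and 14 counts in PBX3_Cl KO against 2 and 1 in Control, a ratio of 7.79 with an exact interval of 2.29 to 41.1 (adjusted p = 0.0386, edgeR). Its call was lost in 6 of the alternatives tried, including those without PBX3_Cl KO replicate 2 (adjusted p = 0.204, edgeR) and without either Control library (adjusted p = 0.102 and 0.163, edgeR). HOXA-AS2, whose annotated exons share bases with HOXA3 on the other strand, rose in PBX3_Cl KO as well, with 16 and 33 counts against 3 and 1 in Control, a log2 fold change of 3.82 ± 0.637 (SE, adjusted p = 0.00202, edgeR). Other HOXA genes had few counts in PBX3_Cl KO, with 5 and 0 for HOXA5, 3 and 0 for HOXA6, 2 and 2 for HOXA2, and 0 for HOXA4 and from HOXA7 to HOXA13. Over all clusters 1 of 42 members was at 0 counts in both libraries of PAX6_Ta KO, against 16 in PBX3_Cl KO and 14 in Control. In the HOXD cluster 8 of 9 members were at 0 counts in both PBX3_Cl KO libraries, and HOXD8 had 3 and 0. In the HOXA flank, CREB5 rose in PBX3_Cl KO with 619 and 676 counts against 38 and 12 in Control, and SNX10 and SKAP2 rose with log2 fold changes of 1.55 ± 0.317 and 1.15 ± 0.254 (SE).

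The HOXB genes of PBX3_Cl KO did not pass the test against Control. Log2 fold changes from HOXB2 to HOXB9 lay between -0.18 for HOXB4 and 0.35 for HOXB8 (lowest adjusted p = 0.451, edgeR), and the median over the 9 tested HOXB members was 0.0456, beside -0.905 over the 6 tested HOXC members and -0.00887 over all tested genes. The difference between the clusters was not tested. For some members the 2 PBX3_Cl KO libraries differed from each other more than those of the other groups. The CPM of replicate 2 over that of replicate 1 was 2.33 for HOXC8, 1.92 for HOXC9 and 1.96 for HOXB3 in PBX3_Cl KO, while over the 8 HOXB and 4 HOXC members with at least 20 counts in every library this ratio lay between 0.647 and 1.39 in PAX6_Ta KO and between 0.584 and 1.18 in Control.

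A microRNA of the HOXB cluster was counted beside the members and was chosen after its values were seen. MIR196A1 is a hairpin gene of miR-196a, one that lies upstream of HOXB9. It had 23 and 31 counts in PAX6_Ta KO, 2 and 3 in PBX3_Cl KO, and 45 and 50 in Control. It fell by 3.91 ± 0.61 (SE) on the log2 scale in PBX3_Cl KO against Control (adjusted p = 0.00132, edgeR), while HOXB9 did not pass the test. The mature 5p strand is known to target HOX transcripts such as HOXB8, and its seed (bases 2 to 8, capitals) is shown from RefSeq (GRCh38.p14) for that reason.
hsa-miR-196a-5p, chr17:48632532-48632553, reverse strand: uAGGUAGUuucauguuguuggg
The total RNA libraries do not separate the mature strand from longer transcripts of this place.

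PAX6_Ta KO against PBX3_Cl KO compares the knockouts with each other and shares both sets of libraries with the comparisons above. In it 13 of 28 tested members were called higher and 0 lower by edgeR, against 5.26% higher and 6.71% lower among all tested genes. All 13 passed the filter on low counts through PAX6_Ta KO, so here too their share carries no weight of its own. DESeq2 called 11 higher and 0 lower, and 0 had a negative fold change at an unadjusted p below 0.05. The 13 were those called in PAX6_Ta KO against Control except HOXB13, which had a ratio of 8.63 with an exact interval of 2.67 to 44.3 (adjusted p = 0.0551, edgeR). HOTAIRM1 had a ratio of 387 with an exact interval of 107 to 3201, and with PBX3_Cl KO at 0 counts HOXD13 was at least 213-fold and HOXA11 at least 62.2-fold higher in PAX6_Ta KO. HOXD8 had a ratio of 15.5 with an exact interval of 5.01 to 77.5, and its call was lost without PAX6_Ta KO replicate 1 (adjusted p = 0.156, edgeR) or PBX3_Cl KO replicate 2 (adjusted p = 0.0913, edgeR). HOXA3 and HOXA5 differed by log2 fold changes of 4.06 ± 0.502 and 6.35 ± 0.711 (SE, adjusted p = 0.000185 and 0.000135, edgeR), although DESeq2 gave an adjusted p of 0.0761 for HOXA5 and 0.409 for HOXA10. HOXC6 had 368 and 331 counts in PAX6_Ta KO against 199 and 193 in PBX3_Cl KO, a log2 fold change of 0.68 ± 0.291 (SE) that was not called (adjusted p = 0.175, edgeR).

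Partners and regulators of HOX genes were followed in 3 lists. Of 9 TALE cofactors, all tested, 3 rose in PAX6_Ta KO against Control, beside 7.21% of all tested genes. One of them, PKNOX2, passed the filter on low counts through PAX6_Ta KO. PBX3 had 282 and 274 counts in PAX6_Ta KO, 235 and 280 in PBX3_Cl KO, and 53 and 49 in Control, with log2 fold changes of 2.58 ± 0.314 in PAX6_Ta KO and 2.62 ± 0.315 in PBX3_Cl KO (SE, adjusted p = 0.000167 and 0.000178, edgeR). PBX4 had 96 and 149 counts in PAX6_Ta KO, 33 and 53 in PBX3_Cl KO, and 18 and 4 in Control, and rose in both. PKNOX2 had 25 and 15 counts in PAX6_Ta KO, 0 and 3 in PBX3_Cl KO, and 0 and 0 in Control, at least 14.6-fold higher in PAX6_Ta KO than in Control. MEIS1, the leukaemia partner of HOXA9, had 1145 and 1074 counts in PAX6_Ta KO, 953 and 819 in PBX3_Cl KO, and 1901 and 1243 in Control. It passed the test in neither knockout (adjusted p = 0.4 for PAX6_Ta KO and 0.202 for PBX3_Cl KO, edgeR), and MEIS2 and PBX2 were not called either.

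Of 28 activators of HOX transcription, 23 were tested, and 1 rose and 2 fell in PAX6_Ta KO against Control. Among all tested genes 7.21% were higher and 4.21% lower. The one that rose was RARB, a retinoic acid receptor and itself a retinoic acid target, with 406 and 371 counts in PAX6_Ta KO, 53 and 45 in PBX3_Cl KO, and 58 and 60 in Control (log2 fold change 2.85 ± 0.334 (SE), adjusted p = 0.000121, edgeR). Both PAX6_Ta KO libraries were far above the other groups, which overlapped. AFF1, an elongation factor subunit, fell by 0.95 ± 0.212 and KAT6A, a histone acetyltransferase, fell by 0.72 ± 0.195 on the log2 scale (SE, adjusted p = 0.011 and 0.0306, edgeR). KMT2A was not called, at 9488 and 13214 in PAX6_Ta KO, 7939 and 12521 in PBX3_Cl KO, and 13974 and 14818 in Control. CDX1, CDX2 and CDX4, caudal factors that act on HOX genes, were at 0 counts in all 6 libraries. The list had a median log2 fold change of -0.18 in PAX6_Ta KO, and in PBX3_Cl KO against Control its lowest adjusted p was 0.366 (edgeR). KMT2B was listed at 0 in every library, and whether its reads were lost in the counting was not tested.

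The 31 Polycomb subunits and partners, all tested, had a median log2 fold change of -0.131 in PAX6_Ta KO against Control. Of them 1 fell, beside 4.21% of all tested genes. This was CBX2, a chromodomain subunit of Polycomb repressive complex 1, with 4163 and 4469 counts in PAX6_Ta KO, 7143 and 7998 in PBX3_Cl KO, and 10880 and 7993 in Control (log2 fold change -0.98 ± 0.189 (SE), adjusted p = 0.00438, edgeR). EZH2, the histone methyltransferase of Polycomb repressive complex 2, had 4263 and 4736 counts in PAX6_Ta KO, 7123 and 7908 in PBX3_Cl KO, and 8130 and 6621 in Control, and was called lower in PAX6_Ta KO against PBX3_Cl KO (log2 fold change -0.9 ± 0.184 (SE), adjusted p = 0.00643, edgeR) but not against Control (adjusted p = 0.0652, edgeR). PHF19, a partner of that complex, rose in PBX3_Cl KO with a log2 fold change against Control of 1.35 ± 0.198 (SE, adjusted p = 0.000817, edgeR). The core subunits SUZ12 and EED were not called against Control in either knockout.

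**Figure D5:**
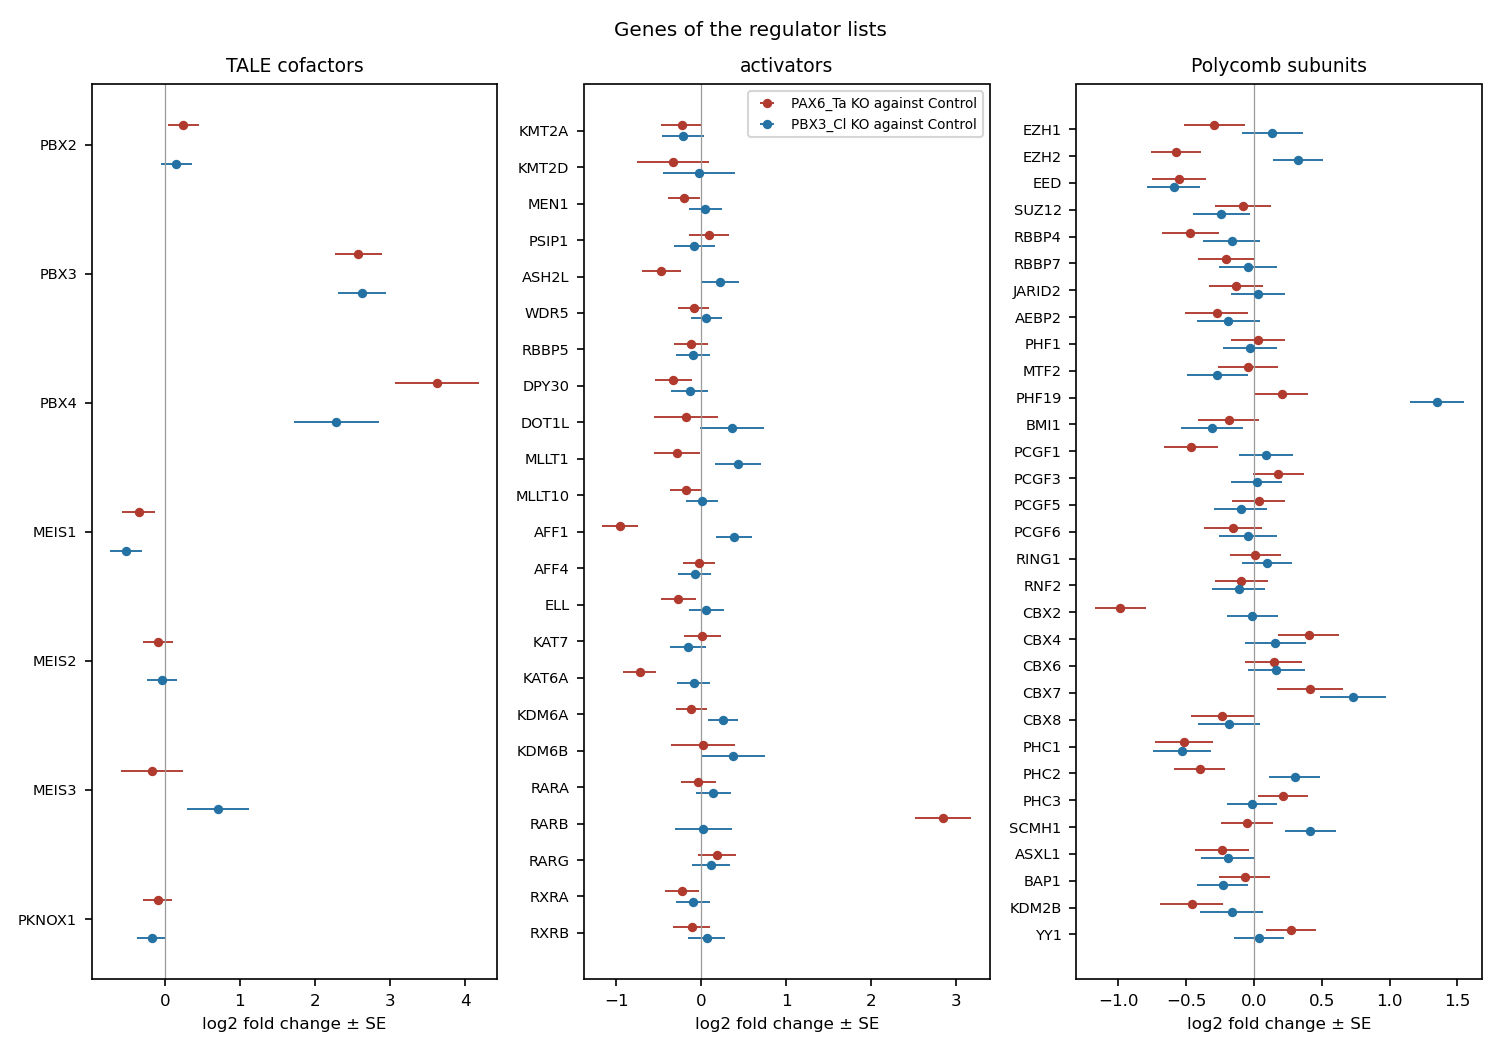
Log2 fold changes against Control with their standard errors for tested TALE cofactors, activators and Polycomb subunits that had more than 3 counts over the Control libraries, in PAX6_Ta KO and in PBX3_Cl KO. PBX3 and PBX4 rose in both knockouts, RARB rose by 2.85 in PAX6_Ta KO, and CBX2 fell by 0.98 in PAX6_Ta KO.

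Homeobox genes outside the clusters did not move one way. Of 18 such genes 9 were tested, and 4 rose and 2 fell in PAX6_Ta KO against Control. Among all tested genes 7.21% were higher and 4.21% lower, and VENTX passed the filter on low counts through PAX6_Ta KO. GBX2 had 127 and 112 counts in PAX6_Ta KO, 14 and 14 in PBX3_Cl KO, and 0 and 0 in Control, at least 87.5-fold higher in PAX6_Ta KO and at least 11.5-fold higher in PBX3_Cl KO. VENTX and DLX2 rose in PAX6_Ta KO with log2 fold changes of 3.19 ± 0.719 and 1.75 ± 0.309 (SE). TLX1, a T cell leukaemia gene, had 41 and 17 counts in PAX6_Ta KO, 2 and 3 in PBX3_Cl KO, and 457 and 320 in Control, and fell in both knockouts. DLX1 had 3594 and 3447 counts in PAX6_Ta KO, 854 and 843 in PBX3_Cl KO, and 2647 and 1928 in Control, and rose in PAX6_Ta KO while it fell in PBX3_Cl KO. GSX1, GSX2 and PDX1, the ParaHox genes on the list beside the CDX genes, were at 0 counts in all libraries.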

How the data were processed

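Total RNA of K562 cells was sequenced in 2 libraries each of PAX6_Ta KO, PBX3_Cl KO and Control. After adaptor trimming (Cutadapt, version 3.4) and STAR alignment to GRCh37, the authors deposited unnormalized counts for each gene. The sources used here give neither the STAR version nor the strand setting of the counting. Their tables of log2 fold changes and p-values were left aside, as were 4 count columns that match no sample label.

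The analysis used edgeR (version 4.0.16) under R (version 4.3.3). Genes passing filterByExpr were kept (20746), libraries of 45912044 to 60908470 counts were scaled by TMM (factors of 0.916 to 1.09), and all 6 entered one quasi-likelihood fit, adjusted by the Benjamini-Hochberg procedure and called below 0.05. Steps were tested on simulated data. CPM used TMM-scaled totals, and CPM per kb used exon lengths of GENCODE release 44 lifted to GRCh37, a later annotation than that of the counts. A group at 0 counts gave a bound against 3 counts over the group, and 1 to 3 counts gave a ratio with an exact 95% interval, both for counting error only. DESeq2 (version 1.42.0), other factors, filters, the replicate block and leaving out each library were the alternatives. The named members were those called in a comparison or tested with at least 20 counts in a library, and up to 5 called genes with the largest change were named from each other list. Members and lists were chosen with earlier results of these data known, and MIR196A1 and PAX6 were added after their values were seen. A few genes are not reported here by name. Replicates differed by more than sampling noise (chi-square per degree of freedom of 44.6 to 139).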

Additional observations from a re-analysis of the deposited data

How the results depend on the processing

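Each group had 2 libraries, and many members had few counts. Members at 0 in Control and PBX3_Cl KO may hold up to 3 counts over a group, and genes that share exon bases may share counts. In PAX6_Ta KO against Control, 14 members were called higher, 8 under the stricter filter, which tested 20 members in place of 28, and 12 to 14 when 1 library was left out. In PAX6_Ta KO against PBX3_Cl KO the count was 13, with 8 under the stricter filter and 12 to 14 when 1 library was left out. In PBX3_Cl KO against Control 1 member was called higher, with 0 under upper-quartile factors, under the stricter filter and with only the groups compared in the fit, and 0 to 1 when 1 library was left out, and 1 was called lower, with 0 to 3 when 1 library was left out (0 without Control replicate 1, 3 without PBX3_Cl KO replicate 2). The causes were not tested. Over all named members and alternatives 963 values kept their side of the threshold, 20 lost it and 9 gained it. The sign changed in 33 of these values, 0 of them for a member that was called. In PAX6_Ta KO against Control it did so without PAX6_Ta KO replicate 1 or Control replicate 2 for HOXB7 (0.07 with all libraries, -0.27 and -0.26), HOXB9 (0.02, -0.2 and -0.16) and HOXC6 (0.03, -0.12 and -0.23), so these have no firm direction. HOXB13 in PAX6_Ta KO against PBX3_Cl KO gained it in 6 alternatives. The fit with a replicate block called 14 higher and 0 lower, 1 and 1, and 13 and 0 members in the 3 comparisons, so it changed no count. Over all genes the block called 2028 higher and 1520 lower in PAX6_Ta KO against Control in place of 1496 and 874, 1922 and 876 in place of 1302 and 558 in PBX3_Cl KO against Control, and 1672 and 2205 in place of 1091 and 1392 in PAX6_Ta KO against PBX3_Cl KO, so the shares of all genes that stand beside the members' counts rise with it. With only the groups compared, 1346 were lower in PAX6_Ta KO against Control. Leaving out 1 library gave 902 to 1901 higher and 384 to 1404 lower genes in PAX6_Ta KO against Control (1496 and 874 with all), 782 to 1319 and 396 to 708 in PBX3_Cl KO against Control (1302 and 558), and 633 to 1440 and 522 to 1538 in PAX6_Ta KO against PBX3_Cl KO (1091 and 1392). Across genes, the replicate 2 minus 1 difference had a correlation of 0.389 between PAX6_Ta KO and Control, 0.21 between PBX3_Cl KO and Control and 0.379 between the knockouts, but the labels do not say what the numbers mark. Without TMM factors 2 of 12 cluster sums moved by more than 1 SD, and with the longest transcript in place of all exons 23 of 78 levels per kb did.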
